A study of Mus musculus with 4 samples.

Results

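Excitation-contraction coupling genes encode the proteins that turn an electrical signal at the surface of a muscle fibre into release of calcium inside it. The set examined was 10 named genes, Ryr1, Ryr2, Ryr3, Cacna1s, Cacna2d1, Cacnb1, Stac3, Jph1, Jph2 and Atp2a1. Its regions were all entries of the deposited region list that overlapped the RefSeq body of a member, extended by 2000 bp on both sides, by 1 bp or more. This gave 30 regions of 39231 in the list, spread over 8 of the 10 genes, and no region was shared between members.

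Methylated DNA was captured with an MBD2-based kit from satellite cells, the stem cells of skeletal muscle, taken from hindlimb muscles of 9-week-old mice and cultured for 3 days. Tamoxifen mice had received 150 µl of a 20 mg/ml solution in corn oil on 5 consecutive days, which induces Cre recombination and gives the Uhrf1-deficient cells, and oil mice were the controls. Each treatment gave 1 methylated and 1 non-methylated DNA library, so there were 4 libraries in 4 groups of 1 sample, and no test across mice or cultures was possible. The Cre driver, the alleles and the number of mice per library are not given in the sources used here. Loss of Uhrf1, tamoxifen, the animals and the culture all differ between the treatments at once and cannot be told apart. A region list holds no expression values, so the cell type could not be checked against its markers.

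The list compares a tamoxifen and an oil alignment, with 25614791 and 19534328 tags left after duplicate removal. Per the file headers the oil alignment was the treatment input of the peak caller, so the list holds regions where the tamoxifen signal was the lower one. The header does not say which DNA part the alignments came from. They are read here as the methylated part, and every statement about captured methylated DNA rests on that. Tags are counts over a region's summit, the tamoxifen tags unscaled. The signal kept is the tamoxifen tags, scaled by 0.763 for library size, as a percentage of the oil tags, and the deposited fold is the inverse comparison, oil over tamoxifen, with 1 added to both. The bracketed 95% limits are those of the scaled ratio of tags with nothing added. They are exact (Clopper-Pearson) and cover counting error only. Because the summit lies where oil was highest, the losses are biased upward by selection.

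In a muscle fibre the action potential runs into the transverse tubules, where the dihydropyridine receptor senses the voltage. Cacna1s encodes its pore and voltage sensor, Cacna2d1 and Cacnb1 encode auxiliary subunits, and Stac3 encodes an adaptor needed for the receptor to act on the release channel. The release channels of the sarcoplasmic reticulum are the ryanodine receptors, with Ryr1 the main one of skeletal muscle, Ryr2 that of the heart, and Ryr3 a form found in brain and developing muscle among other tissues. Junctophilins, encoded by Jph1 and Jph2, tether the reticulum to the tubule membrane, and the calcium pump encoded by Atp2a1 returns calcium to the reticulum. In myogenic cells many of these genes are switched on as myoblasts differentiate. UHRF1 brings the maintenance methyltransferase DNMT1 to newly replicated DNA, and the question asked of each gene was where along it the tamoxifen library had less captured DNA.

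Captured signal was lower in the tamoxifen library inside 8 of the 10 genes (80%), and the 2 without a region were Cacna1s and Jph1. By the same rule 38.2% of 34614 protein-coding and lncRNA genes and 45.2% of 21887 protein-coding genes carried a region. At a stricter q limit of 1e-10 the 8 genes still each had a region, against 41.4% of protein-coding genes. Of the 2429 protein-coding genes of 100 kb or longer, 84.9% carried a region, and 5 members are that long, so each member is also set against genes of similar length. Among those, the share with a region ran from 31.4% for Stac3 to 91.4% for Ryr3. The 38.2%, 45.2% and 41.4% are not matched for length, and no matched share is given at the stricter limit. Regions in body and flanks per 100 kb of gene body were, in contrast, 1.48 for the 10 genes together and 2.43 for all protein-coding genes together. Per 100 kb of gene and flanks the values were 1.45 and 2.24. The number of regions differed widely between members. Ryr1 had 13, Jph2 had 5, Ryr3 had 4, Cacnb1, Stac3 and Atp2a1 had 2 each, and Ryr2 and Cacna2d1 had 1 each.

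**Figure D1:**
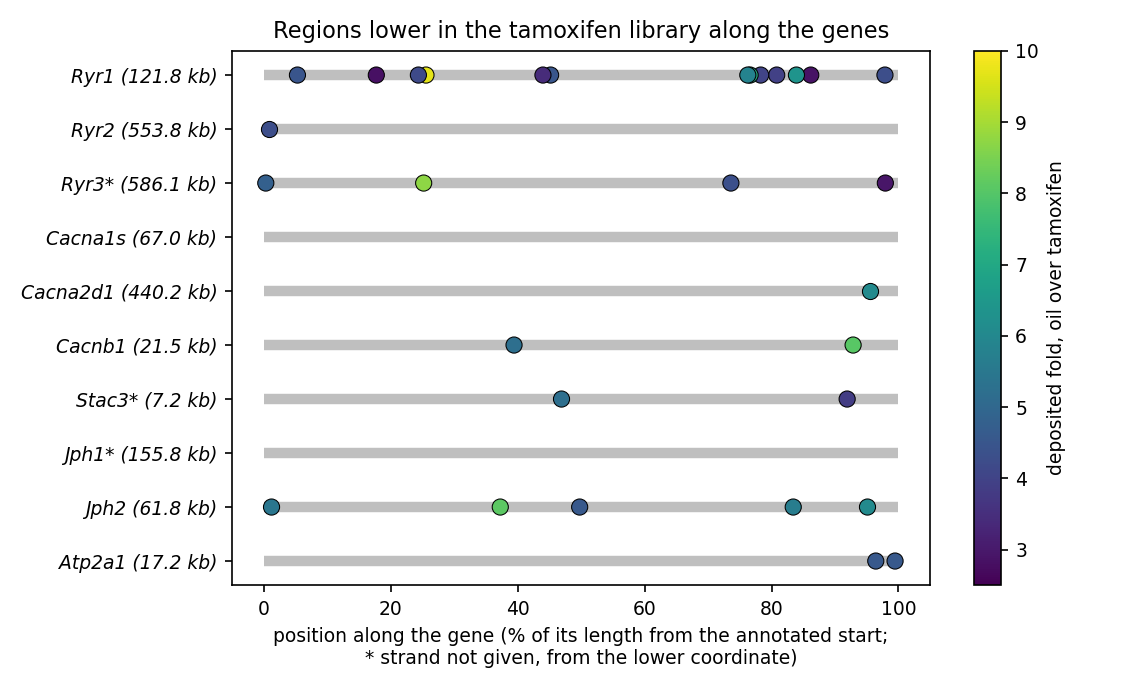
Each grey bar is a gene, all drawn to the same width as percent of gene length, with the length in kb beside the name. Each point is the middle of a region, and the colour the deposited fold (oil over tamoxifen). Positions run from the annotated start, or from the lower coordinate for the 3 genes marked with an asterisk, and Ryr1 carries 7 of its 13 regions in the last 25% of its length.

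Gene starts were examined first, because promoter methylation is the form most often tied to silencing. Of the 10 members, 7 had an entry in the RefSeq promoter table (GRCm38.p6, the assembly of mm10), which holds windows of 300 bases from 250 before to 50 after a start. None of the 9 windows of these 7 genes overlapped a region, where 1.47% of 27025 genes in the table had an overlapping window. Jph2 alone of the 7 had a region within 2000 bp of a start, where 9.14% of genes in the table did. Shown are the promoter of Jph2, which lies next to a region, of Ryr1, the gene with most regions, of Cacna2d1, the most CpG-rich of the 7, and of Cacna1s, which has no region. The letters are 5′ to 3′ on the gene's strand, from RefSeq, with each CG dinucleotide, the target of MBD2 when methylated, in capitals.
Jph2, chr2:163397924-163398223, minus strand: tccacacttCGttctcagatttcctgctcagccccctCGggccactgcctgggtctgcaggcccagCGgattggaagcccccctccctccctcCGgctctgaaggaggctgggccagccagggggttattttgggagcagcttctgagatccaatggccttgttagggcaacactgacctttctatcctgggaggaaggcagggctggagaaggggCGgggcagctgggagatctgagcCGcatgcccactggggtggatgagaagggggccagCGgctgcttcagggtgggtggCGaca
Ryr1, chr7:29125102-29125401, minus strand: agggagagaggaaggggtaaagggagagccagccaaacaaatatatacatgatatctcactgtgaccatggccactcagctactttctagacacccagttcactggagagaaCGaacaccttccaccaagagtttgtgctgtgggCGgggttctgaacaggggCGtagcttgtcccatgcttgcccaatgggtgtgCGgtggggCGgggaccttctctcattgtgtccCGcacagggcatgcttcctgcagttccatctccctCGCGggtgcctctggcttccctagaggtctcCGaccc
Cacna2d1, chr5:15934441-15934740, plus strand: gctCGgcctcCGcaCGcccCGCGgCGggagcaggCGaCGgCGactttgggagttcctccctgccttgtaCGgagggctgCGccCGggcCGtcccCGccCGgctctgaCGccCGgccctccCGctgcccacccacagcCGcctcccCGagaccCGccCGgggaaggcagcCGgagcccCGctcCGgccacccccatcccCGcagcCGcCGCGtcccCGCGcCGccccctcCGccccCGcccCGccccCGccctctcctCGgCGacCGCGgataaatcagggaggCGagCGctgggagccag
Cacna1s, chr1:136052561-136052860, plus strand: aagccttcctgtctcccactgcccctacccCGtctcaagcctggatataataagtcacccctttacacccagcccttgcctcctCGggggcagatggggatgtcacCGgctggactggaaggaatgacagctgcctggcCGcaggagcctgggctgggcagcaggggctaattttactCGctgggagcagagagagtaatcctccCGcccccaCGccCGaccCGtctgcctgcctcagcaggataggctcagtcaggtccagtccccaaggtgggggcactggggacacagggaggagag

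The CG dinucleotide, which reads the same on both strands, occurred 8 times in this Jph2 window, 9 times in that of Ryr1, 42 times in that of Cacna2d1 and 9 times in that of Cacna1s. Over all 32851 windows in the table the median was 7 (quartiles 3 and 20), and 94.6% held it at least once. Cacna2d1 exceeded 97.0% of all windows. Of the members not printed, Ryr2 had 18 in its window, Atp2a1 had 4, and Cacnb1 had 34 at its outer start and 3 at an inner one. The windows thus ranged from CpG-poor to CpG-rich, and no region overlapped any of them. Absence from the list does not say whether a promoter was unmethylated, unchanged, higher in the tamoxifen library or too thinly covered.

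Ryr1 carried the most regions of the set. The gene (chromosome 7, 29003340 to 29125179, minus strand, 121.8 kb) held 13, or 10.7 per 100 kb of gene body. Of the protein-coding genes of 100 kb or longer, 21 (0.865%) had at least that density, Ryr1 included, and their median gene had 3 regions. Among 3363 protein-coding genes from 0.5 to 2 times its length, 61 (1.81%) had at least as many regions and 71 (2.11%) at least its density. Over protein-coding genes of any length, 11.6% reached the density of Ryr1, with regions in the flanks counted. The shorter members Stac3 (27.8 per 100 kb) and Atp2a1 (11.6 per 100 kb) were denser than Ryr1, on 2 regions each.

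Over these 13 regions the tamoxifen library had 6 to 33 tags (median 15) and the oil library 30 to 116 tags (median 54). The tamoxifen signal kept was 8.63% to 34.0% of the oil signal. Over the whole list the median kept was 20.1%, with quartiles of 15.3% and 25.9%. Of the 13 folds, 4 exceeded the list median of 4.61.

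The deepest loss in Ryr1 was at 29093859 to 29094241 and 25.5% of the way into the gene. It had 6 tamoxifen tags and 53 oil tags, giving a deposited fold of 9.68 (ratio of tags 11.6, limits 4.98 to 33.0), above 97.6% of listed regions. The best covered was at 29118589 to 29118858, 6293 bp downstream of the start, with 33 tamoxifen tags and 116 oil tags (fold 4.47, limits 3.11 to 7.01). This was also the region nearest to the Ryr1 start, and none lay within 2000 bp of either gene end.

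The shallowest losses in Ryr1 were at a pair of regions whose limits overlap. One, at 29103457 to 29103709, had 16 tamoxifen tags and 36 oil tags (fold 2.80, limits 1.60 to 5.69, 33.9% of the oil signal kept). With unscaled tamoxifen tags it had a fold of 2.18 and no longer passed the weakest p in the list, the only one of the 30 to drop out. It was also the only member region not past a q limit of 1e-06. The other, at 29020050 to 29020309, had 33 tamoxifen tags and 74 oil tags (fold 2.87, limits 1.93 to 4.58, 34.0% kept).

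The part of Ryr1 farthest from its start was the most crowded. There, 7 regions from 29005826 to 29032372, a stretch of 26.5 kb within the last 25% of the gene, had folds of 2.87 to 7.17. The 25% before it held none, and each of the first 2 such parts of the gene held 3. The closest pair, at 29031684 to 29031957 and 29032157 to 29032372, lay 199 bp apart. The first of this pair had 6 tamoxifen tags and 39 oil tags (fold 7.17), the other 11 tamoxifen tags and 54 oil tags (fold 5.86). Such close neighbours are separate entries of the caller but not independent measurements. The region at 29029643 to 29029939 also overlaps the lncRNA gene Gm38979, and the one at 29071253 to 29071934, the longest of the set at 682 bp, overlaps Gm26604.

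The other ryanodine receptor genes are more than 4 times as long as Ryr1 and carried far fewer regions. Ryr2 (chromosome 13, 11553099 to 12106945, minus strand, 553.8 kb) had 1, or 0.181 per 100 kb, at 12102637 to 12103012. That region starts 3933 bp downstream of the gene start. It had 31 tamoxifen tags and 104 oil tags, so 22.7% of the oil signal was kept (fold 4.26, limits 2.92 to 6.80). Among 593 protein-coding genes of 0.5 to 2 times its length, called genes of similar length below, 90.4% had at least 1 region, the median gene had 3, and 25.3% had 1 or none.

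Ryr3 (chromosome 2, 112631354 to 113217405, 586.1 kb, strand not given in the table) had 4 regions, 0.683 per 100 kb, against a median of 3 in 546 genes of similar length. The best covered member region of all was at 112633028 to 112633329, 1674 bp inside the end with the lower coordinate, with 37 tamoxifen tags and 138 oil tags (fold 4.76, limits 3.38 to 7.23). At 112778844 to 112779081 there were 5 tamoxifen tags and 41 oil tags (fold 8.73, limits 4.25 to 34.9). The other regions, at 113062538 to 113062759 and at 113205165 to 113205365, had 19 tamoxifen tags and 66 oil tags (fold 4.33) and 22 tamoxifen tags and 51 oil tags (fold 2.93). The 4 lay at least 142405 bp apart, so Ryr3 had scattered single regions where Ryr1 had close neighbours.

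Among the ryanodine receptor genes the order by density was Ryr1, Ryr3 and Ryr2. Exact Poisson limits on the counts gave 5.68 to 18.2 per 100 kb for Ryr1, 0.186 to 1.75 for Ryr3 and 0.00457 to 1.01 for Ryr2. The limits of Ryr1 lay apart from those of the other genes, and those of Ryr3 and Ryr2 overlapped. They treat regions as independent, which neighbours are not, and give no spread between mice. CpG density along the genes, on which the capture depends, was not examined because no genome sequence was used here.

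**Figure D2:**
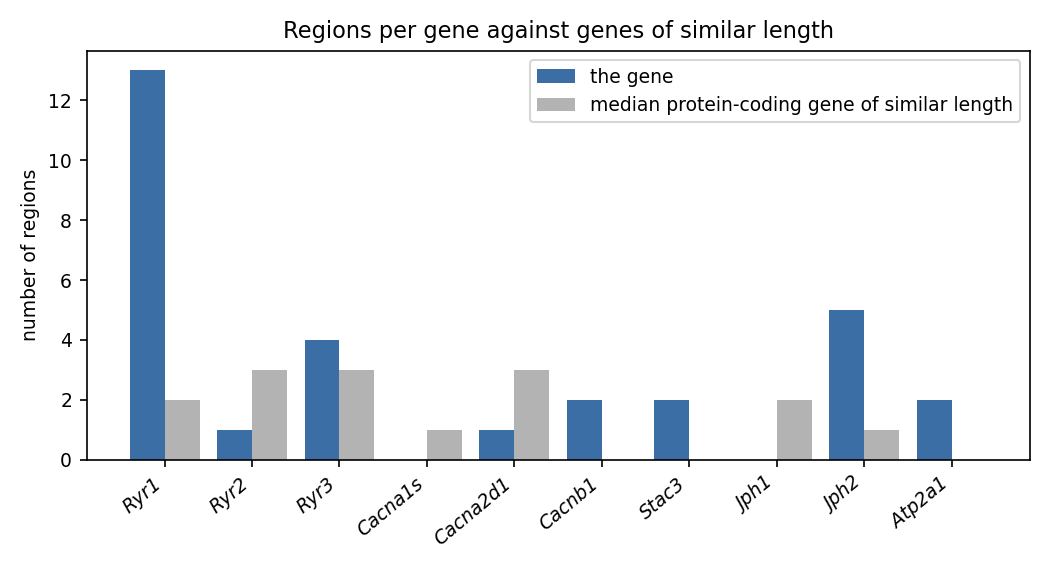
Number of regions in each gene (blue, left) and in the median protein-coding gene of 0.5 to 2 times its length (grey, right). Ryr1 stands at 13 against a median of 2 and Jph2 at 5 against 1, while Ryr2 and Cacna2d1 have 1 each against 3.

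Of the dihydropyridine receptor genes, the pore gene had no region and the auxiliary subunit genes had few. Cacna1s (chromosome 1, 136052806 to 136119822, plus strand, 67.0 kb) had none, as did 30.4% of 5254 protein-coding genes of similar length. The nearest region lay 4374 bp before the lower end of the gene, at 136048195 to 136048432, with 17 tamoxifen tags and 67 oil tags (fold 4.87). Cacna1s therefore gained 1 region when the flank was widened to 5000 bp.

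Cacna2d1 (chromosome 5, 15934264 to 16374511, plus strand, 440.2 kb), the α2δ subunit gene, had 1 region, at 16354518 to 16354757. It lay 95.5% of the way along the gene, far from its CpG-rich promoter. It had 8 tamoxifen tags and 42 oil tags, so 14.5% of the oil signal was kept (fold 6.06, limits 3.19 to 17.0). Of 796 genes of similar length, 89.3% had at least 1 region and 24.7% had 1 or none.

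Cacnb1 (chromosome 11, 98001508 to 98023034, minus strand, 21.5 kb), the β subunit gene of skeletal muscle, had 2 regions. Of 7917 genes of similar length, 49.6% had any region and 22.8% had at least 2. The Cacnb1 region at 98002933 to 98003160, 1425 bp inside the far end of the gene, had 2 or fewer tamoxifen tags and 24 oil tags. The deposited fold, 8.07, rests on the 2.10 scaled tags that the caller uses as its lowest background. With 2 tamoxifen tags the lower limit of the ratio was 3.91. The other, at 98014445 to 98014650, had 7 tamoxifen tags and 32 oil tags (fold 5.21, limits 2.60 to 16.1). This one lay 3722 bp downstream of the inner start, whose window held 3 CG dinucleotides.

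Stac3 (chromosome 10, 127501617 to 127508823, 7.21 kb, strand not given in the table) is the shortest member and had 2 regions. Of 5979 genes of similar length, 31.4% had any region and 9.42% had at least 2. The region at 127504832 to 127505162, in the middle of the gene, had 13 tamoxifen tags and 56 oil tags (fold 5.22, limits 3.05 to 11.3). The other, at 127508105 to 127508376 and 447 bp inside the end with the higher coordinate, had 10 tamoxifen tags and 32 oil tags (fold 3.83, limits 2.01 to 9.57), and it was not past a q limit of 1e-10.

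The junctophilin genes differed in their counts. Jph1 (chromosome 1, 16942104 to 17097922, 155.8 kb) had no region, and the nearest listed one lay 113.9 kb away, at 16827917 to 16828221 (6 tamoxifen tags and 40 oil tags). Of 2707 protein-coding genes of similar length, 18.9% had none. Jph2 (chromosome 2, 163336242 to 163398049, minus strand, 61.8 kb) had 5, or 8.09 per 100 kb, and 10.9% of 5501 genes of similar length had at least as many. This difference between the genes was not tested.

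The Jph2 region at 163397010 to 163397587 is the member region closest to a gene start. It began 386 bp downstream of the nearest listed start and 336 bp from the edge of the promoter window printed above. It had 18 tamoxifen tags and 79 oil tags, so 17.4% of the oil signal was kept (fold 5.43, limits 3.42 to 10.2). With 578 bp it was longer than the list median of 259 bp.

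The other Jph2 regions lay further along the gene. At 163374890 to 163375154 there were 5 tamoxifen tags and 38 oil tags (fold 8.10, limits 3.92 to 32.4). The region at 163367186 to 163367392 had 9 tamoxifen tags and 35 oil tags (fold 4.58). Towards the far end, 163346311 to 163346671 had 11 tamoxifen tags and 52 oil tags (fold 5.65), and 163339139 to 163339380 had 8 tamoxifen tags and 42 oil tags (fold 6.06). Jph2 was thus lower in the tamoxifen library near its start, in its body and near its far end, and all 5 regions were past a q limit of 1e-10.

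Atp2a1 (chromosome 7, 126445858 to 126463103, minus strand, 17.2 kb), the calcium pump gene of fast muscle fibres, had 2 regions at its far end, 242 bp apart. The outer one, at 126445837 to 126446063, runs 21 bp past the gene and also overlaps the neighbouring gene Rabep2. It had 11 tamoxifen tags and 42 oil tags (fold 4.58, limits 2.53 to 10.8). The inner one, at 126446306 to 126446643, had 9 tamoxifen tags and 35 oil tags (fold 4.58, limits 2.40 to 12.1). Both kept close to 20% of the oil signal, 20.0% and 19.6%, and no region lay near the start of the gene. Of 7860 genes of similar length, 46.0% had any region and 19.9% had at least 2.

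**Figure D3:**
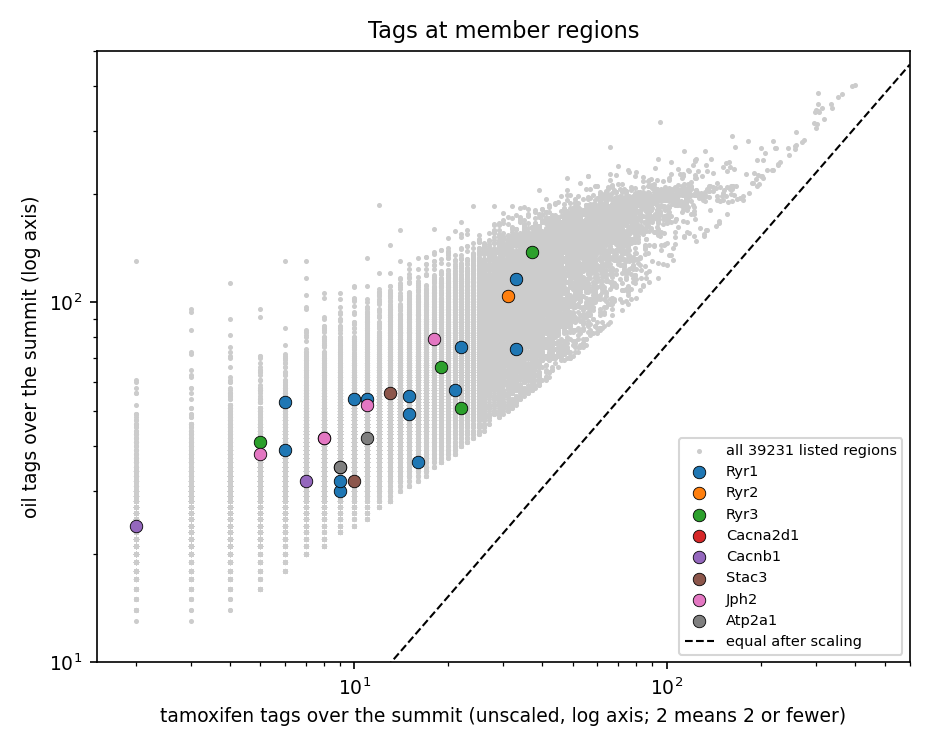
Tamoxifen tags (horizontal, log axis) and oil tags (vertical, log axis) over the summit of each member region, coloured by gene, on all 39231 listed regions in grey. All 30 member regions lie above the dashed line of equal scaled signal, as the calling rule requires of every listed region. They are themselves part of the grey cloud. The points of Cacna2d1 and of 1 Jph2 region (8 tamoxifen and 42 oil tags) coincide. So do those of another Jph2 region and the inner Atp2a1 region (9 tamoxifen and 35 oil tags).

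Set beside the whole list, the 30 regions had similar values. The 30 regions had a median of 11 tamoxifen tags and 50 oil tags, against 14 tamoxifen and 51 oil tags in the list. The median signal kept was 19.8% (from at most 6.36%, at the Cacnb1 region with 2 or fewer tamoxifen tags, to 34.0%), beside 20.1% in the list, and the median fold was 4.58 (2.80 to 9.68), beside 4.61. Of the 30 folds, 14 exceeded the list median, 4 of 13 in Ryr1 and 10 of 17 in the other members. Without Ryr1 the median fold was 5.21 and the median signal kept 17.7%, and this difference was not tested. The exact limits of 28 of the 30 included the median signal kept of the list, and the exceptions were the deepest Ryr1 region and the Ryr1 region at 29020050 to 29020309. Most of these limits are wide, and the share over all listed regions is not given, so this count does not show likeness to the list.

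**Figure D4:**
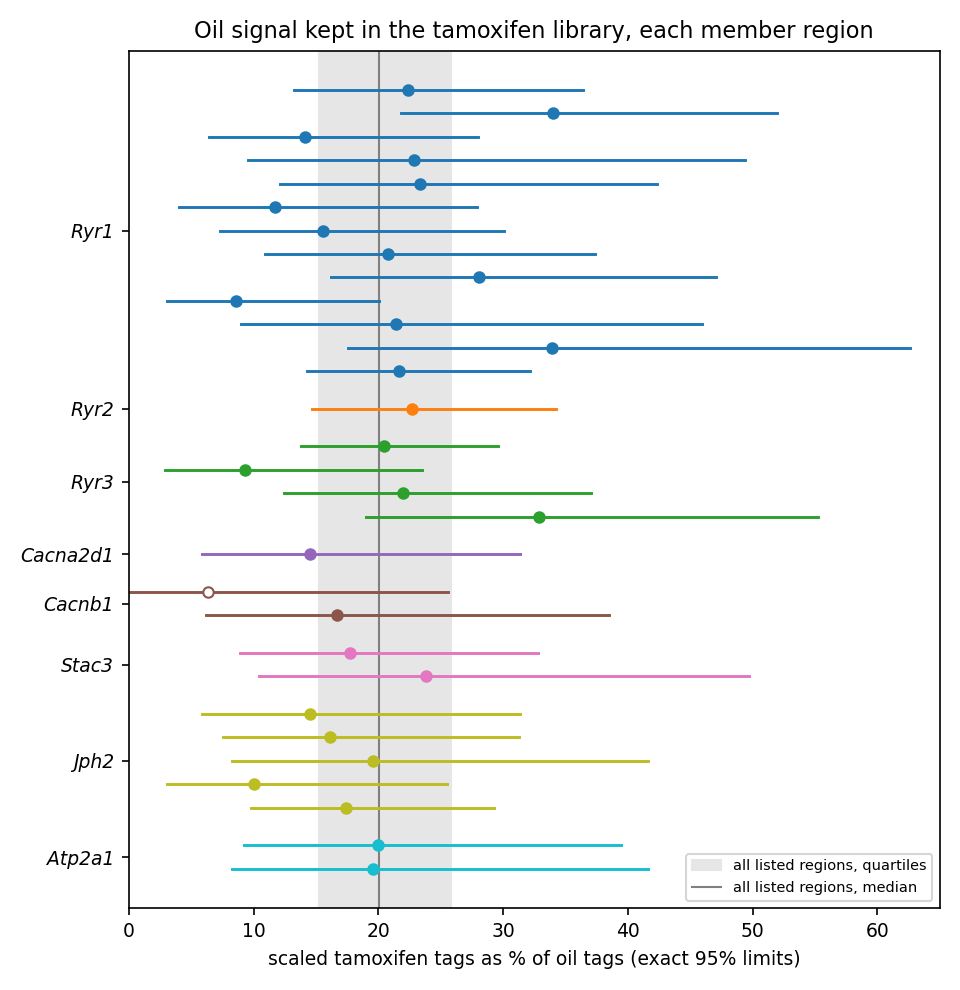
Scaled tamoxifen tags as a percentage of oil tags at each of the 30 member regions, with exact 95% limits, grouped by gene in order of coordinate. The grey band and line are the quartiles (15.3% and 25.9%) and median (20.1%) of the list, and the open circle is the Cacnb1 region with 2 or fewer tamoxifen tags.

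The position of regions along the genes was uneven. In the 6 members with a listed start and at least 1 region, 13 of 24 regions (54.2%) had their midpoint in the last 25% of the gene, 0 in the 25% before it, 6 in the next and 5 in the first 25%. In protein-coding genes of the promoter table, 33.6% of 18780 regions lay in the last 25%, so regions in general leaned that way. The 25% before it held 25.2%, the next 22.2% and the first 25% held 19.0%. Ryr1 held 7 of the 13, Jph2 and Atp2a1 held 2 each, and Cacna2d1 and Cacnb1 held 1 each. Both Atp2a1 regions, the only Cacna2d1 region and 1 each of Cacnb1, Jph2 and Ryr1 lay in the last 10%, at 92.9% to 99.5% of the gene length. No share over other genes is given for the last 10%, so this is not read as particular to the members. Neighbouring regions share a source, and the difference from other genes was not tested.

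A longer list of 50 genes of the same pathway was counted in the same way, and 31 (62%) carried a region, beside 45.2% of protein-coding genes. Per 100 kb of gene and flanks the list had 2.19 regions, beside 2.24 in all protein-coding genes, and its genes were not matched for length. The genes with most regions were the cardiac and neuronal calcium channel gene Cacna1c (15 regions), the mitochondrial calcium uniporter gene Mcu (12), the inositol trisphosphate receptor gene Itpr2 (10), the calcium channel gene Cacna1d (9) and the kinase gene Speg (8). The highest deposited folds were at Speg (9.43, 3 tamoxifen and 30 oil tags), Itpr1 (9.33, 6 tamoxifen and 51 oil tags), Cacnb3 (8.84, 7 tamoxifen and 55 oil tags), Cacnb4 (8.60, 15 tamoxifen and 106 oil tags) and Cacna1c (8.43, 6 tamoxifen and 46 oil tags). These were below the deposited fold of 9.68 in Ryr1, although the Speg region kept less of the oil signal, 7.63% against 8.63%. The 114 distinct regions of this list had a median fold of 4.90.

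Within 2000 bp of a start, 5 of the 36 pathway genes with a listed start had a region, where 9.14% of all genes with a listed start did. At Cacna1d it began 37 bp downstream of the start (7 tamoxifen and 31 oil tags, fold 5.05). At Scn4a, the sodium channel gene of skeletal muscle, it began 194 bp downstream of an inner listed start, well inside the gene (3 tamoxifen and 24 oil tags, fold 7.60), and at Dysf, which encodes the membrane repair protein dysferlin, it ended 550 bp upstream (19 tamoxifen and 65 oil tags, fold 4.26). Speg had one 954 bp upstream (5 tamoxifen and 28 oil tags, fold 6.03) and Itpr3 one 1947 bp upstream (13 tamoxifen and 72 oil tags, fold 6.69). The 19 pathway genes without a region included the calsequestrin gene Casq2, the calcium pump regulator genes Sln and Pln, the chloride channel gene Clcn1 and the caveolin gene Cav3.

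Other muscle gene groups were counted by the same rule for comparison. Regions lay in 9 of 9 sarcomeric myosin heavy chain genes, 5 of 5 giant sarcomere scaffold genes and 6 of 13 thin filament genes (46.2%), where 45.2% of protein-coding genes had one. At a q limit of 1e-10 the counts were 9, 5 and 3, where 41.4% of protein-coding genes had one. Per 100 kb of gene and flanks the 10 coupling genes together had 1.45 regions, the myosin heavy chain genes 10.3, the scaffold genes 4.64 and the thin filament genes 5.67, beside 2.24 in all protein-coding genes. Ryr2, Ryr3 and Cacna2d1, the longest of the coupling genes, together had 6 regions. Median folds were 4.58 for the coupling genes, 4.71 for the myosin heavy chain genes, 4.74 for the scaffold genes and 4.83 for the thin filament genes. None of these differences was tested, and the groups were not matched for length. Median gene length was 94.4 kb for the coupling genes, 24.5 kb for the myosin heavy chain genes, 202.2 kb for the scaffold genes and 9.86 kb for the thin filament genes.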

How the data were processed

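MBD2 capture sequencing of 4 libraries, 1 per group, was described by the labels, and 1 region list was used. The submitters' processing notes name Trim Galore, HISAT2, MACS2 2.2.6 and mm10. The authors called regions with oil as treatment and tamoxifen as control, with no regional background, 1 tag per position and strand at most, tags of 130 bp extended to 201 bp and a q cutoff of 1e-04, per the file headers. The libraries held 36519772 tamoxifen and 35216008 oil tags before duplicate removal. The deposited pileup is a signal value, the oil tags over the summit. The deposited fold enrichment is a ratio of oil to scaled tamoxifen tags. The headings of a pair of columns were lost, and they were read as the deposited -log10 p and -log10 q values of the caller, which compare libraries and not conditions.

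Tamoxifen tags were computed from pileup and fold and were whole, within 0.02 tags, in 97.5% of regions. The remaining 980 were at the genome mean, meaning 2 or fewer tags. The -log10 p values recomputed from the oil tags and the scaled tamoxifen values before rounding to whole tags were within 0.000173 of those deposited. Recovery was checked on simulated tags, and overlap counting against a direct count over the deposited regions for a random sample of genes. Genes came from the RefSeq table of GRCm38.p6, and strand and starts from the RefSeq promoter table. All 10 members and all 50 pathway genes matched by symbol. Genes of similar length are those from 0.5 to 2 times a member's length. Named were all members, every region of members with up to 5 regions, the region of highest fold and of most oil tags in Ryr1, the 5 pathway genes with most regions and with highest folds, and those with a region near a start. Other Ryr1 regions and pathway genes without regions were named after their values were seen. Members and lists were chosen with earlier results of these data known. Only the tamoxifen-lower direction was analysed here. Python 3.11.15, pandas 2.3.3, numpy 2.4.6 and scipy 1.17.1 were used.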

Additional observations from a re-analysis of the deposited data

How the results depend on the processing

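The number of member genes with a region was 8, and it stayed at 8 with q limits of 1e-06 and 1e-10, with the gene body alone and with the midpoint or at least 50% of the region required inside the window, and was 9 with 5000 bp flanks, through Cacna1s. With unscaled tamoxifen tags the median fold of the 30 regions was 3.60 and the median signal kept 26.0%. Leaving out Ryr1, an alternative chosen after seeing the data, left 17 regions and a density of 0.890 per 100 kb, against 30 and 1.48 with it. Its regions are 43.3% of the set, while the median fold without it was 5.21. At a q limit of 1e-10, 25 regions remained, and Stac3 had 1 in place of 2. The shares of all listed regions passing this limit, or dropping out with unscaled tamoxifen tags, are not given here. Of the pathway list, 28 to 34 genes carried a region over the alternatives run. No paired analysis was possible because each group has 1 library. With 1 library per treatment, counting error is the only error that could be given, and its limits are wide where tamoxifen tags are few.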
